A study of Mus musculus with 12 samples.

Results

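The B cell antigen receptor is read out by a small group of surface proteins, and the 8 genes described here encode its 2 signalling chains and the coreceptors and phosphatase that tune it: Cd79a, Cd79b, Cd81, Cr2, Fcgr2b, Cd22, Cd72 and Ptpn6. Open-chromatin peaks were taken as members when the protein-coding RefSeq gene span nearest to their midpoint, within 50000 bp, was one of these genes. That rule gave 55 of 68689 peaks, each 501 bp long, and all 55 passed the filter on low counts. The assay was Omni-ATAC-seq: Tn5 transposase cuts open chromatin and attaches adapters, so that reads pile up over accessible DNA. The material was germinal center B cells sorted from the spleens of C57BL/6 mice aged 8 to 10 weeks, which were either Pbrm1+/+ (WT) or Pbrm1-/- (HOMO). Pbrm1 encodes a subunit of PBAF, a chromatin remodeller of the SWI/SNF family. Each genotype gave sorted populations labelled CB and CC, letters that the labels do not spell out, and each of the 4 groups (WT CB, HOMO CB, WT CC and HOMO CC) had 3 libraries. How the Pbrm1 allele was made is not stated in the sources used here, although the count columns begin with the unexplained name Pbrm1AID. No treatment or immunisation is given by the labels either. Nothing says that the libraries came from separate mice, so p-values measure the spread between these 12 libraries, which may be partly technical.

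CD79A and CD79B pair beside membrane immunoglobulin and carry the tyrosine motifs that SRC-family kinases and SYK use to start the signal. Complement receptor CD21, the product of Cr2, and the tetraspanin CD81 belong to a coreceptor complex that lowers the amount of antigen needed, whereas CD22, CD72 and the IgG receptor FCGR2B carry inhibitory motifs. CD22 and CD72 recruit SHP-1, the tyrosine phosphatase encoded by Ptpn6, and in germinal centers such restraint is known to shape which B cells are selected.

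Totals of counts in peaks ran from 6431354 to 45590454 per library, and library 3 was the deepest of every group. Member peaks held 16 to 2515 counts in a library. Replicates differed by more than counting error, with a chi-square per degree of freedom of 2.28 to 7.66. The 2 peaks nearest to Pbrm1 passed the test in neither population, and accessibility there is no check of the Pbrm1 genotype. Of 12 germinal center B cell marker genes, 12 had peaks, with a summed level of 2495 to 3084 CPM over 138 peaks, CPM being counts per 1000000 of the scaled library total. Of 14 T cell marker genes 8 had a peak (24 in all, 209 to 273 CPM), and Cd3g, Cd8a, Cd28, Lck, Thy1 and Trat1 had none. Of 15 myeloid marker genes 9 had a peak (36 in all, 354 to 446 CPM), while Lyz2, Mpo, Elane, S100a8, Fcer1g and Clec4d had none. Of 12 follicular dendritic and stromal marker genes 8 had a peak (17 in all, 74.9 to 95.7 CPM), with none at Cxcl13, Enpp2, Pdpn or Vcam1.

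Peaks lay over the transcription starts of the members, so the 250 bases before the start are shown for 4 genes whose start coincides with the end of the gene span: a signalling chain, a coreceptor, an inhibitory receptor and the phosphatase. The sequences are RefSeq's on GRCm38.p6, the assembly also called mm10, read 5′ to 3′ on the coding strand, ending at the base before the start. The coordinates are chr7:24897247-24897496 on the plus strand for Cd79a, chr7:143052500-143052749 on the plus strand for Cd81, chr1:170976072-170976321 on the minus strand for Fcgr2b and chr6:124738710-124738959 on the minus strand for Ptpn6. Capitals mark matches, on either strand, to any of 5 motifs: EBF (by its palindromic consensus), octamer (ATGCAAAT), E-box (CAGGTG), Ets (GGAAGT) and AP-1 (TGANTCA).
Cd79a: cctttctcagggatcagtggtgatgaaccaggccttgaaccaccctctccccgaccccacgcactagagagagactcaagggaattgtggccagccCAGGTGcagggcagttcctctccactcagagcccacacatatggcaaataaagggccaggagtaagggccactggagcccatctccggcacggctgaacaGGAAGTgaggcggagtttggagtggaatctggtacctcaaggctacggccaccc
Cd81: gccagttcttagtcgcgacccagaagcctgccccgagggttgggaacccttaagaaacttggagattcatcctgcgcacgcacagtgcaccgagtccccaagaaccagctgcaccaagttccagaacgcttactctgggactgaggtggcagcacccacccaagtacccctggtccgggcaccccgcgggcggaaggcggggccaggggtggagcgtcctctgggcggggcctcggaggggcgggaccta
Fcgr2b: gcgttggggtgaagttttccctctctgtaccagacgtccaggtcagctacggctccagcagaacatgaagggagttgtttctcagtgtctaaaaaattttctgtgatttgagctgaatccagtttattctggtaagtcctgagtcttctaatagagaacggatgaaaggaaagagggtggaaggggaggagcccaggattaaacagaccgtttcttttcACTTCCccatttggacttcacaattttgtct
Ptpn6: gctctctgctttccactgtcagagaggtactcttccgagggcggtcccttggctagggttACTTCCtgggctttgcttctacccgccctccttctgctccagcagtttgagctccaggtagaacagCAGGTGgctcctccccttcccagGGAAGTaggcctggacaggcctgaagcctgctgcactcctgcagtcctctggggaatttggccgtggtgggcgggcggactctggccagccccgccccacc
The Cd79a sequence held an E-box 154 bp and an Ets match 54 bp before the start. None of the 5 motifs occurred in the Cd81 sequence, which had the highest GC content (65.6%) and 16 CpG dinucleotides, against medians of 52.4% and 6 over all 32851 promoters of the table. Fcgr2b had an Ets match 31 bp before its start and the lowest GC content, 45.2%. Ptpn6 held an E-box 124 bp and Ets matches 190 and 101 bp before its start. In all, 7 of the 8 members were found in the promoter table, and Cd22 was the one with an EBF match (TCCCTGGGGA, 49 bp before its start). Over all promoters of the table, EBF matches occurred in 0.78%, octamer matches in 1.6%, E-box matches in 17.22%, Ets matches in 19.74% and AP-1 matches in 6.75%. A match describes letters in this window and does not show that a factor bound there.

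Accessibility at these genes was high for the table. The median of the members' mean levels was 16.6 CPM against 7.78 CPM over all peaks, and 46 of 55 members lay above that all-peak median. All peaks have the same length, so levels compare between peaks per 501 bp. In 13 members the midpoint lay within 1000 bp of an end of the gene span (gene-end peaks), with a median of 29.3 CPM against 22.1 CPM for all gene-end peaks. The 11 members elsewhere inside a span had a median of 17.1 CPM, against 6.37 CPM for all such peaks, and the 31 outside had 14.5 CPM against 5.71 CPM. Exons, introns and untranslated regions were not assigned, because the gene table used gives spans only.

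Cd79a and Cd72 had the most open starts. In WT CB libraries 1, 2 and 3, the peak centred 175 bp before the Cd79a start (chr7:24897072-24897572) had 53.5, 51.2 and 60.6 CPM. The peak 35 bp past the Cd72 start had 49.1, 53.6 and 49.2 CPM in the same libraries. These ranges overlapped, and both genes stayed ahead of the other 6 starts in mean level in every group. In WT CB the next were Cd81 (43.4 ± 1.08 CPM, SD, n = 3), Cd79b (42.0 ± 2.46 CPM) and Cr2 (37.8 ± 6.8 CPM), each overlapping the next in the order. Fcgr2b followed at 31.1 ± 3.02 CPM and overlapped Cr2, and Cd22 (25.0 ± 1.83 CPM) and Ptpn6 (24.9 ± 6.03 CPM) came last. Those last 2 overlapped one another, and Cd22 lay below Fcgr2b in every WT CB library. In HOMO CC the same genes held the lower places, with Fcgr2b at 28.9 ± 1.18 CPM, Cd22 at 23.4 ± 0.214 CPM and Ptpn6 at 16.3 ± 5.24 CPM, and there none of these 3 ranges overlapped. For Cd79b, which has no entry in the promoter table, the peak centred 33 bp from the end of its span stands for the start.

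Loss of Pbrm1 was compared with WT separately in CB and in CC by edgeR's quasi-likelihood test over all peaks, and calls needed an adjusted p (Benjamini-Hochberg) under 0.05. Few members passed. In CB 1 of 55 passed, lower in HOMO, against 4.63% of all peaks called (0.779% higher and 3.85% lower). In CC 3 of 55 passed, 2 higher and 1 lower, against 2.75% of all peaks (0.578% higher and 2.17% lower). The called peaks were 671 bp inside Cd81 (lower in both populations) and upstream of Cd22 and of Fcgr2b (higher in CC). Most members, called ones included, had estimates above 0. The median log2 fold change was 0.14 in CB, with 39 of 55 above 0, and 0.22 in CC, with 47 above 0. Over all peaks the medians were 0.01 and 0.02, and 51.0% and 53.7% lay above 0. Groups did not overlap, with HOMO higher, at 16 members in CB and 16 in CC, and that was so for 10.3% and 9.81% of all peaks. HOMO was lower without overlap at 1 member in each, against 13.2% and 11.2% of all peaks.

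**Figure D1:**
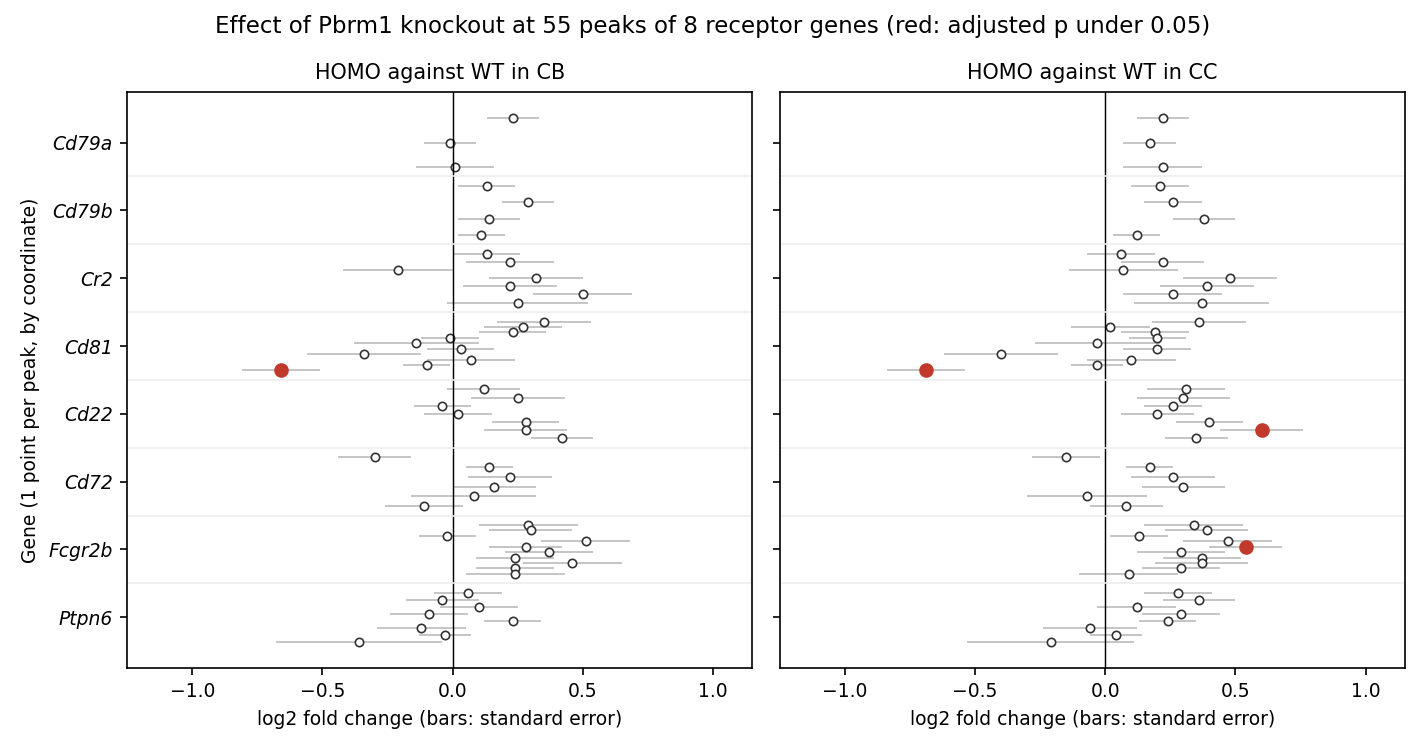
Log2 fold change of HOMO against WT for each of the 55 member peaks, by gene, in CB and in CC; red points passed the test (adjusted p under 0.05) and bars are standard errors. Red points are the Cd81 peak at -0.66 and -0.69 and, in CC, peaks of Cd22 at 0.60 and Fcgr2b at 0.54, while most open points lie to the right of 0.

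By position, and with no test between classes, members outside gene spans had medians of 0.23 in CB and 0.26 in CC on the log2 scale, and 26 and 28 of these 31 peaks were above 0. All outside peaks had a median of 0.05 in each population. Gene-end members had medians of 0.02 and 0.17, against -0.11 and -0.07 for all 15782 gene-end peaks of the table, of which 9.45% and 5.79% were called. Of those table peaks 1451 and 882 were called lower in HOMO. The called Cd81 peak belongs to this class and was the 1 of 13 gene-end members called in each population. The 11 members elsewhere inside spans had medians of -0.03 and 0.26, against 0.05 and 0.06 for all such peaks. None of the 11 was called, against 3.41% and 1.97% of all such peaks.

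At the signalling chains, no single peak passed the genotype test. Cd79a had 3 peaks, and at its start HOMO CB libraries had 53.2, 54.7 and 56.4 CPM, WT CC libraries 43.0, 39.4 and 49.7 CPM and HOMO CC libraries 46.3, 49.3 and 53.1 CPM. The HOMO and WT ranges overlapped in both populations, with log2 fold changes of -0.01 (SE 0.10, edgeR adjusted p = 0.967) in CB and 0.17 (SE 0.10, adjusted p = 0.397) in CC. The Cd79a peak 1128 bp before the start had 31.1, 30.7 and 28.8 CPM in WT CB against 38.0, 34.3 and 34.5 CPM in HOMO CB. In CC it had 25.9, 30.3 and 26.9 CPM in WT and 31.1, 31.8 and 34.0 CPM in HOMO. Here every HOMO library lay above every WT library of its population, and the estimates of 0.23 and 0.22 missed the threshold (edgeR adjusted p = 0.199 and 0.256). All 4 Cd79b peaks had estimates above 0 in both populations, from 0.11 to 0.29 in CB and from 0.12 to 0.38 in CC. The most open of them, 1117 bp past the other end of the gene (chr11:106309974-106310474), had 51.9, 45.7 and 46.0 CPM in WT CB against 61.0, 58.8 and 56.3 CPM in HOMO CB. Those groups did not overlap, but the adjusted p by edgeR was 0.115 for a log2 fold change of 0.29 (SE 0.10). In CC the same Cd79b peak had 40.1, 39.7 and 38.7 CPM in WT and 37.7, 50.1 and 52.1 CPM in HOMO, where HOMO library 1 lay below all WT libraries. The Cd79b peak of smallest genotype p lay inside the gene, 839 bp from the end of the span that stands for the start. It had 17.7, 15.9 and 16.6 CPM in WT CC and 21.7, 21.5 and 22.0 CPM in HOMO CC. HOMO was higher in every library there, with a log2 fold change of 0.38 (SE 0.12, edgeR adjusted p = 0.0996).

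Cd81 encodes a tetraspanin that organises the coreceptor complex in the membrane, and it held the only member that passed the genotype test in both populations. This peak, chr7:143053171-143053671, is centred 671 bp past the Cd81 start, within the gene span, and counts among the gene-end peaks. Its WT CB libraries had 24.8, 17.4 and 23.9 CPM and its HOMO CB libraries 17.0, 12.9 and 13.2 CPM. In CC it had 21.5, 19.1 and 20.0 CPM in WT and 14.0, 11.5 and 12.4 CPM in HOMO. Every HOMO library was below every WT library of its population, narrowly so in CB, where HOMO library 1 came close to WT library 2. The peak fell by 0.66 on the log2 scale in CB (95% interval -0.96 to -0.37, edgeR adjusted p = 0.0151) and by 0.69 in CC (-0.99 to -0.40, adjusted p = 0.0191). Without WT CB library 1, HOMO CB library 2 or HOMO CB library 3 the CB call was lost (adjusted p = 0.0976, 0.122 and 0.0874). In CC it was lost without WT library 1, HOMO library 2 or HOMO library 3 (adjusted p = 0.0822, 0.164 and 0.0857).

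The neighbouring peak over the Cd81 start, whose upstream sequence is printed above, gave other values. It is centred 33 bp before the start and had 42.2, 44.2 and 43.7 CPM in WT CB, 39.9, 37.8 and 43.2 in HOMO CB, 39.0, 33.3 and 36.9 CPM in WT CC and 34.2, 34.8 and 37.3 CPM in HOMO CC. WT and HOMO overlapped in both populations. Its log2 fold changes were -0.10 (95% interval -0.29 to 0.08, edgeR adjusted p = 0.592) and -0.03 (-0.22 to 0.15, adjusted p = 0.903). The count 671 bp inside the gene divided by the count over the start was 0.509 ± 0.102 (SD, n = 3) in WT CB and 0.357 ± 0.062 in HOMO CB, where HOMO library 1 (0.426) lay above WT library 2 (0.394). In CC the ratio was 0.556 ± 0.0174 in WT and 0.358 ± 0.0465 in HOMO, with no overlap. The other 8 Cd81 peaks lay 1225 to 15825 bp upstream, and none passed. Estimates over all 10 Cd81 peaks ran from -0.66 to 0.35 in CB and from -0.69 to 0.36 in CC. The upper end in both was the farthest peak, 15825 bp before the start.

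**Figure D2:**
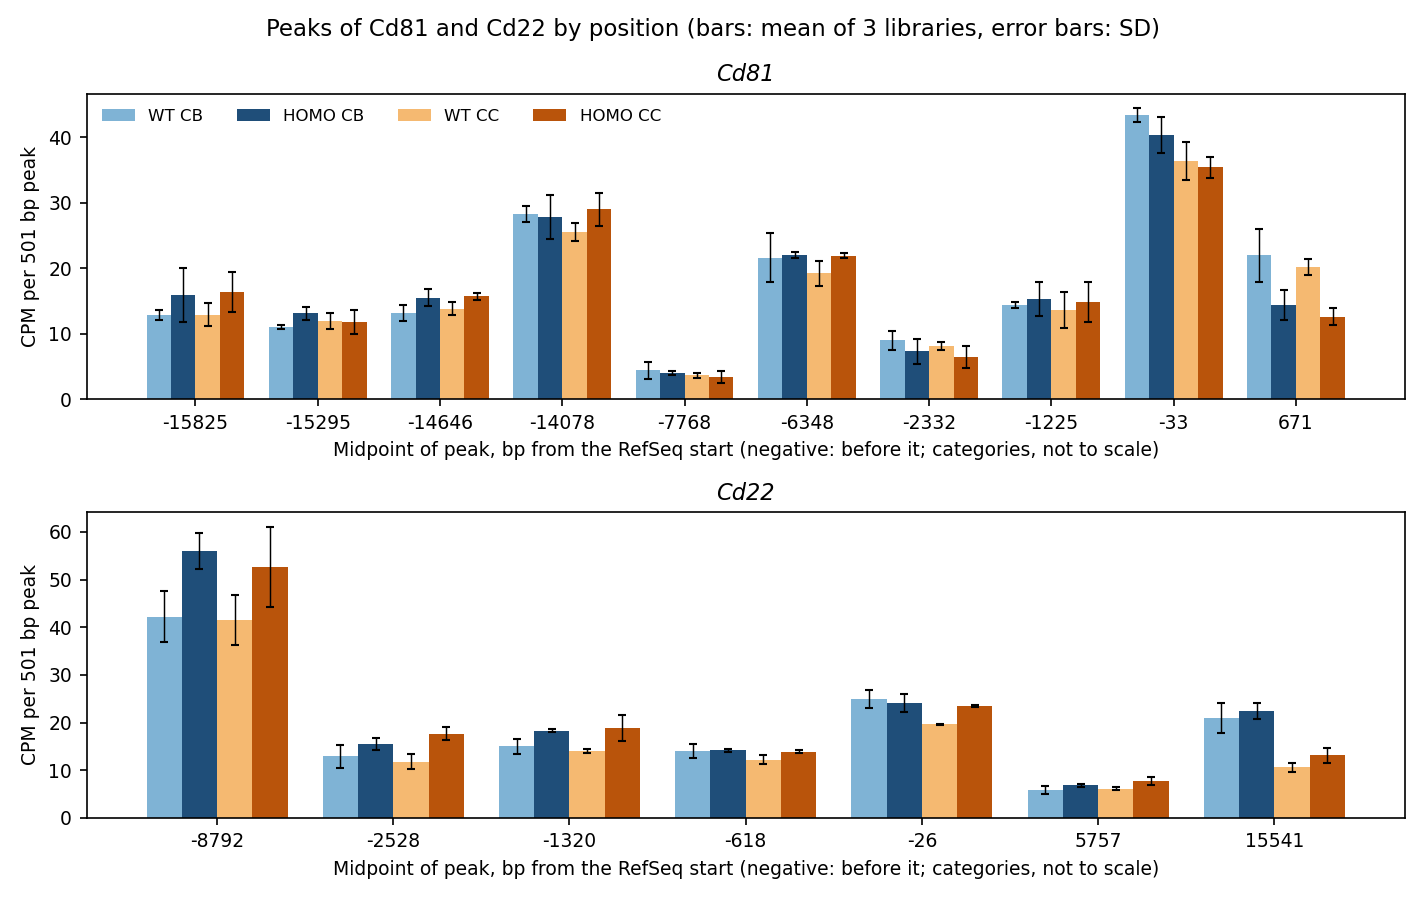
Mean accessibility of each group (bars, CPM per 501 bp peak, error bars are the SD of 3 libraries) at the Cd81 and Cd22 peaks in order of position from the start in bp. At Cd81 the HOMO bars are the shorter ones at the peak 671 bp past the start, and at Cd22 the HOMO bars are taller than WT at the peaks 2528 and 8792 bp upstream.

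Cr2 encodes the complement receptor that ties opsonised antigen to the B cell receptor. Its 7 peaks comprised 1 at the start and 6 from 8198 to 34501 bp upstream. The start peak had 41.9, 41.5 and 29.9 CPM in WT CB against 47.8, 38.0 and 38.2 CPM in HOMO CB, and in CC 42.6, 43.0 and 33.6 CPM in WT and 42.7, 43.0 and 38.5 CPM in HOMO. Groups overlapped in both populations and WT library 3 was the lowest in each. Of the 7 Cr2 estimates, 6 were above 0 in CB and 7 in CC, and none passed. The smallest genotype p was 25095 bp upstream, with 7.71, 9.39 and 8.95 CPM in WT CB, 9.56, 12.3 and 10.2 in HOMO CB, 8.46, 8.0 and 12.2 CPM in WT CC and 11.8, 15.3 and 12.9 CPM in HOMO CC. HOMO lay above WT without overlap in CB only. The CC estimate there was 0.48 (SE 0.18, edgeR adjusted p = 0.154).

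Fcgr2b encodes the low-affinity IgG receptor that dampens signalling when antigen arrives in immune complexes. A peak centred 6416 bp upstream of its start (chr1:170982237-170982737) was higher in HOMO CC. That peak had 10.0, 11.4 and 9.72 CPM in WT CC and 14.2, 16.0 and 14.6 CPM in HOMO CC. In CB it had 15.7, 11.8 and 12.4 CPM in WT and 15.8, 16.5 and 16.1 CPM in HOMO. No library of HOMO fell within the WT range of its population, but WT CB library 1 was almost level with HOMO CB library 1. The rise in CC was 0.54 (SE 0.14, edgeR adjusted p = 0.047), and the CB estimate of 0.28 (SE 0.14) was not called (adjusted p = 0.287). The CC call held without HOMO CC library 1 and was lost without any one of the other 5 CC libraries (adjusted p = 0.0744 to 0.26). It was also lost with library totals in place of TMM (0.0651) and with only the 2 CC groups in the fit (0.076). All 10 Fcgr2b peaks had estimates above 0 in CC, from 0.09 to 0.54, and 9 of 10 did in CB, up to 0.51 at the peak 5230 bp upstream. The exception in CB was the start peak, at -0.02, which had 31.2, 34.1 and 28.1 CPM in WT CB against 31.0, 31.2 and 29.4 CPM in HOMO CB with overlapping ranges. In CC the start peak had 27.9, 28.0 and 23.7 CPM in WT and 28.4, 30.2 and 28.0 CPM in HOMO.

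Cd22 encodes a sialic acid-binding lectin that restrains the receptor. Its 7 peaks included the second upstream call. The peak centred 2528 bp before the start that the promoter table gives (chr7:30881306-30881806), which lies 1214 bp outside the gene span, had 13.1, 12.1 and 10.1 CPM in WT CC and 17.7, 19.1 and 16.3 CPM in HOMO CC. In CB it had 15.3, 12.9 and 10.4 CPM in WT and 14.3, 16.7 and 15.4 CPM in HOMO. The groups were apart in CC and overlapped in CB, where WT library 1 exceeded HOMO library 1. In CC the peak rose by 0.60 on the log2 scale (95% interval 0.29 to 0.90, edgeR adjusted p = 0.0427), and in CB the estimate was 0.28 (-0.03 to 0.58, adjusted p = 0.337). As at Fcgr2b, the call held without HOMO CC library 1 and was lost without any one of the other 5 CC libraries (adjusted p = 0.0802 to 0.247). It was also lost with library totals in place of TMM (0.0613) and with only the 2 CC groups in the fit (0.0534).

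A larger Cd22 peak lay 8792 bp upstream and was the gene's most open one, at 48.1 CPM over all libraries. It had 44.2, 46.3 and 36.1 CPM in WT CB against 56.2, 59.8 and 52.1 CPM in HOMO CB, with no overlap. In CC it had 37.8, 47.6 and 39.5 CPM in WT and 43.2, 59.4 and 55.4 CPM in HOMO, and HOMO library 1 fell within the WT range. The log2 fold changes were 0.42 (SE 0.12, edgeR adjusted p = 0.0539) and 0.35 (SE 0.12, adjusted p = 0.121). By DESeq2 this peak passed in CB (0.43, SE 0.14, adjusted p = 0.0329). It also passed in CB by edgeR with RLE size factors, with library totals only, over peaks averaging a log2 CPM of 1 or more, with only the 2 groups compared, with log2 library total as a covariate and without both HOMO libraries numbered 1. Over all 7 Cd22 peaks the estimates ran from -0.04 to 0.42 in CB and from 0.20 to 0.60 in CC. The gene-end peak with the highest level, 1320 bp before the start, had 16.9, 14.1 and 14.2 CPM in WT CB, 18.3, 18.0 and 18.5 in HOMO CB, 14.5, 13.9 and 13.7 CPM in WT CC and 21.9, 17.7 and 16.9 CPM in HOMO CC. HOMO exceeded WT in every library of both populations at that peak, and the estimates of 0.28 and 0.40 were not called (edgeR adjusted p = 0.251 and 0.109).

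**Figure D3:**
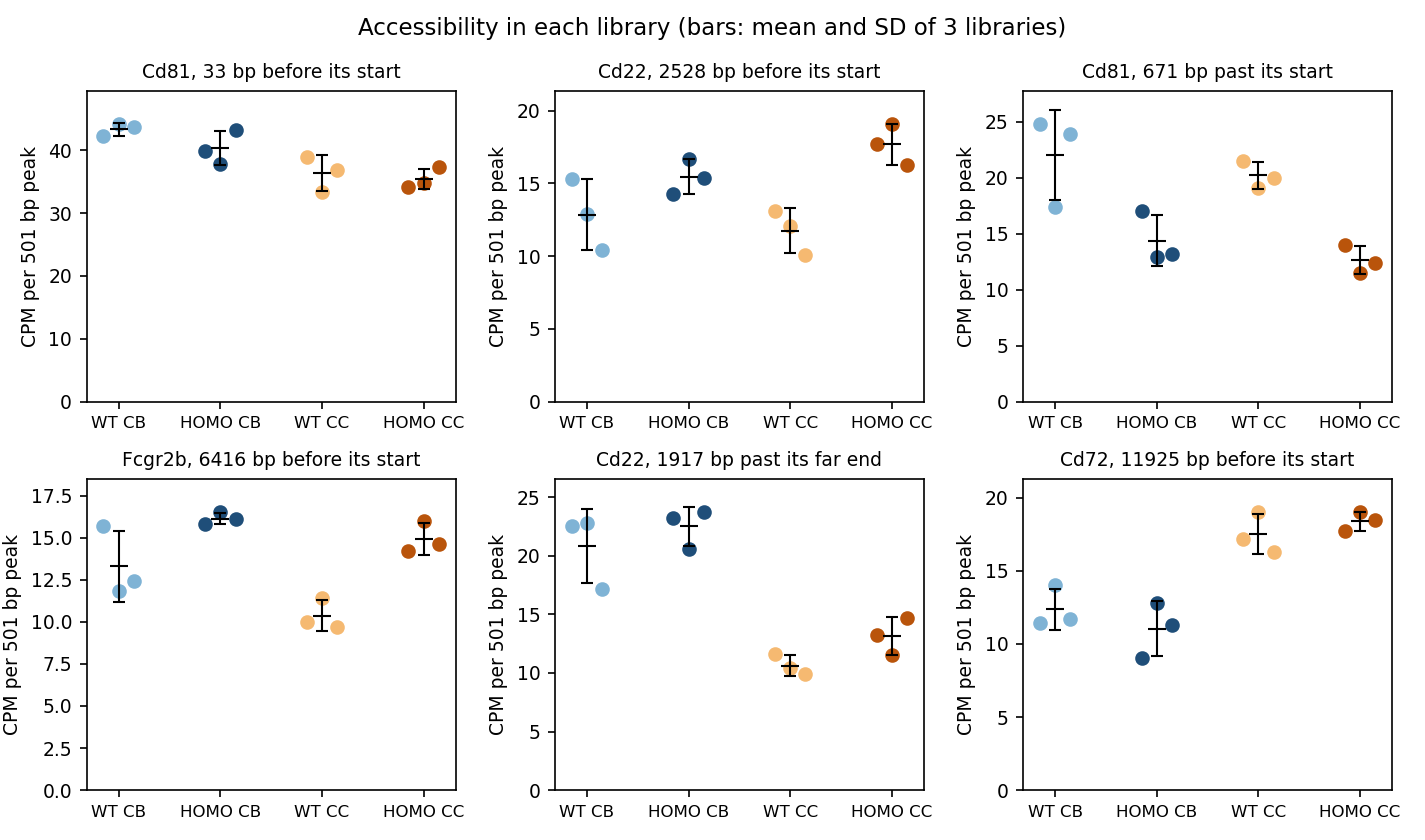
Accessibility in each library (CPM per 501 bp peak, points; bars are the mean and SD of 3 libraries) for the Cd81 start peak and the 5 peaks called in any comparison. HOMO lies below WT at the Cd81 peak 671 bp past the start, and CC lies below CB at the Cd22 peak 1917 bp past the far end of the gene and above CB at the Cd72 peak 11925 bp before the start.

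Cd72 encodes an inhibitory C-type lectin-like receptor, and none of its 6 peaks passed the genotype test. Its start peak had 54.4, 57.2 and 55.5 CPM in HOMO CB, each above all 3 WT CB libraries, with a log2 fold change of 0.14 (SE 0.09, edgeR adjusted p = 0.408). In CC the Cd72 start had 45.3, 45.1 and 46.2 CPM in WT and 44.8, 51.7 and 56.1 CPM in HOMO, and HOMO library 1 was the lowest of the 6. The smallest genotype p at Cd72 belonged to a peak 1008 bp past the start, with 21.3, 18.1 and 19.5 CPM in WT CB against 14.4, 14.9 and 18.3 CPM in HOMO CB. The ranges met at HOMO library 3, and the estimate was -0.30 (SE 0.14, edgeR adjusted p = 0.219). In CC that peak had 18.4, 20.3 and 21.1 CPM in WT and 16.1, 17.0 and 20.3 CPM in HOMO, again overlapping.

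Ptpn6 encodes SHP-1, which removes phosphates from tyrosines once the inhibitory receptors are engaged. Its 8 peaks all lay within the span of its gene and none passed. Estimates ran from -0.36 to 0.23 in CB and from -0.21 to 0.36 in CC. The most open Ptpn6 peak, 5595 bp past the start, had 52.2, 54.7 and 45.8 CPM in WT CB, 52.8, 46.5 and 50.4 in HOMO CB, 38.8, 43.0 and 40.9 CPM in WT CC and 37.9, 41.8 and 45.7 CPM in HOMO CC. WT and HOMO overlapped, and the estimates were -0.03 and 0.04 (SE 0.10 each). The peak of smallest genotype p, 16677 bp past the start, had 13.1, 13.7 and 16.0 CPM in WT CC and 18.5, 17.5 and 19.4 CPM in HOMO CC. HOMO was higher in each CC library there, with an estimate of 0.36 (SE 0.14, edgeR adjusted p = 0.181). In CB it had 20.2, 18.7 and 15.6 CPM in WT and 16.9, 15.5 and 20.2 CPM in HOMO. Near the other end of the gene, the gene-end peak with the highest level had 40.6, 34.4 and 30.9 CPM in WT CB against 32.6, 37.4 and 39.7 CPM in HOMO CB, and in CC 28.2, 26.8 and 31.1 CPM in WT and 26.9, 35.7 and 40.1 CPM in HOMO. These groups overlapped too.

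The Ptpn6 start had the largest standard error of the member peaks in each genotype comparison and was singled out after its values were seen. It is centred 8 bp past the start and 482 bp from the neighbouring gene Grcc10. It had 22.2, 20.7 and 31.8 CPM in WT CB, 14.4, 16.5 and 26.8 in HOMO CB, 14.7, 14.7 and 28.0 CPM in WT CC and 12, 14.7 and 22.1 CPM in HOMO CC. Library 3 was the highest in all 4 groups and was also the deepest of each. The genotype estimate in CB was -0.36 (SE 0.32, edgeR adjusted p = 0.589). With log2 library total as a covariate it was -0.55 (SE 0.17, adjusted p = 0.0377), a call in a fit that called 11.8% of all peaks.

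Counts summed over all peaks of a gene gave 1 value per gene, tested over 14261 genes. In CB 1 of the 8 genes passed, Cd79b, against 7.06% of all genes (2.43% higher and 4.63% lower). Its sum was 162, 158 and 146 CPM in WT CB against 185, 181 and 182 CPM in HOMO CB. Every HOMO library was higher and the sum rose by 0.23 on the log2 scale (SE 0.07, edgeR adjusted p = 0.0449), a call lost without any one of the 6 CB libraries (adjusted p = 0.0843 to 0.141) and with library totals in place of TMM (0.061). In CC the gene that passed was Cd22, against 4.08% of all genes (1.02% higher and 3.06% lower). Its sum was 122, 129 and 113 CPM in WT CC and 152, 163 and 154 CPM in HOMO CC. These groups did not overlap, and Cd22 rose by 0.37 (SE 0.08, edgeR adjusted p = 0.021). The Cd22 call was lost without WT CC library 1 or 3 or HOMO CC library 2 or 3 (adjusted p = 0.0682 to 0.137).

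Other gene sums came near the threshold without passing it. Fcgr2b had estimates of 0.29 in CB and 0.32 in CC (SE 0.09, edgeR adjusted p = 0.061 and 0.0548), and Cd22 in CB had 0.27 (SE 0.08, adjusted p = 0.0524). Cd79b in CC had 0.24 (adjusted p = 0.0574), Cd79a in CC 0.22 (adjusted p = 0.068) and Cr2 in CB 0.25 (adjusted p = 0.0801). By DESeq2, which called 10.4% of all genes in CB and 7.58% in CC, all of these but Cr2 passed. The DESeq2 adjusted p was 0.0327 for Cd22 in CB, 0.0415 and 0.0241 for Fcgr2b in CB and CC, 0.0183 for Cd79b in CC and 0.0259 for Cd79a in CC. The sums of Cd79a, Cd79b, Cd22, Fcgr2b and Cr2 were higher in HOMO without overlap in both populations, 5 of 8 genes, and that held for 12.6% of all genes in CB and 10.8% in CC. For Cd81 the sum hid the peak that fell: its gene-level estimates were 0.02 and 0.04 (SE 0.06, edgeR adjusted p = 0.855 and 0.730). Cd72 and Ptpn6 sums had estimates of 0.13 and 0.05 in CB and 0.17 and 0.16 in CC, with overlapping groups.

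Whether the genotype effect differed between CC and CB was tested as the difference of the 2 effects. By edgeR no member and no peak of the table passed (0.0% of 68689), and DESeq2 called none either. At an unadjusted p under 0.05 there were 0 members and 810 peaks in the table. The calls at Cd22 and Fcgr2b in CC alone are therefore not shown to be specific to CC.

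The levels of the members also varied by library. Each library's median deviation of the 55 members, as log2 CPM from the mean of all 12 libraries, was 0.07, -0.03 and -0.10 in WT CB and 0.04, 0.12 and 0.14 in HOMO CB. In CC it was -0.16, -0.08 and -0.16 in WT and -0.06, 0.13 and 0.13 in HOMO. The HOMO libraries were above the WT libraries of their population except HOMO CB library 1, which was below WT CB library 1. HOMO library 1 was both the lowest and the shallowest of its group in each population. The WT groups did not share that order: in WT CB the deepest library, number 3, was the lowest. In WT CC the shallowest and the deepest libraries, numbers 1 and 3, both had -0.16. With log2 library total as a covariate, the median log2 fold change of the members was 0.13 in CB and 0.23 in CC, against 0.14 and 0.22 without it. The same median deviation over all peaks stayed between -0.01 and 0.02.

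**Figure D4:**
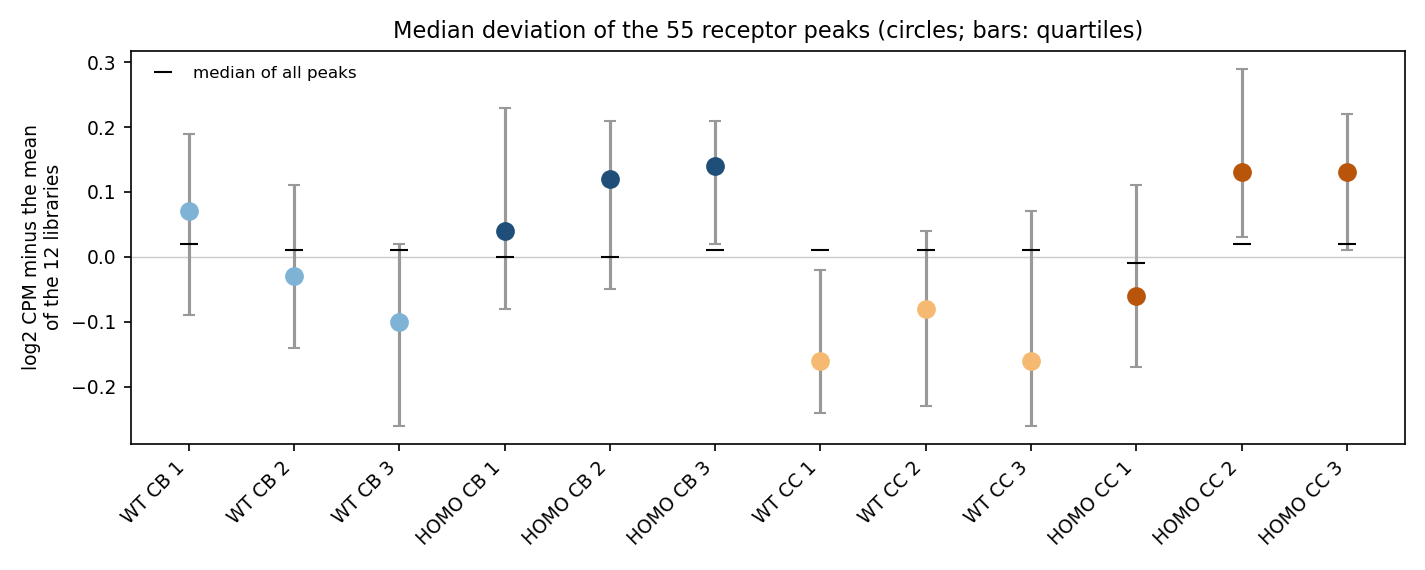
Median (point) and quartiles (bar) over the 55 members of log2 CPM minus the mean over 12 libraries, for each library, with the median over all peaks as a black dash. HOMO libraries 2 and 3 lie at 0.12 to 0.14 and the WT CC libraries at -0.16 to -0.08, while all-peak medians stay near 0.

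CC was compared with CB within each genotype, on the same 12 libraries as the genotype comparisons. A peak of Cd22 fell and a peak of Cd72 rose in CC in both genotypes, 2 of 55 members in each. Over all peaks 5.43% were called in WT (3.35% higher and 2.08% lower) and 7.22% in HOMO (4.78% higher and 2.44% lower). Median log2 fold changes were -0.11 in WT, with 19 of 55 members above 0, and -0.01 in HOMO, with 27 above 0, against all-peak medians of -0.03 and 0.00. CC lay below CB without overlap at 12 members in WT and 7 in HOMO, against 12.7% and 11.5% of all peaks. It lay above at 4 and 3 members, against 12.2% and 13.5%.

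The Cd22 peak (chr7:30863237-30863737) lies 1917 bp past the far end of Cd22 and 2017 bp from Ffar1, a fatty acid receptor gene, so it is nearly as close to that gene. It had 22.5, 22.8 and 17.2 CPM in WT CB, 23.2, 20.6 and 23.7 in HOMO CB, 11.6, 10.4 and 9.88 CPM in WT CC and 13.2, 11.5 and 14.7 CPM in HOMO CC. All 6 CC libraries were below all 6 CB libraries. It fell by 0.97 in WT (95% interval -1.26 to -0.68, edgeR adjusted p = 7.5e-04) and by 0.77 in HOMO (-1.06 to -0.49, adjusted p = 0.0023). The call stayed without each of the libraries in turn, at adjusted p values up to 0.0102 in WT and 0.0306 in HOMO. The Cd72 peak (chr4:43466301-43466801) is centred 11925 bp before the Cd72 start, with Sit1 the next gene at 15532 bp. It had 11.4, 14.0 and 11.7 CPM in WT CB, 9.04, 12.8 and 11.3 in HOMO CB, 17.2, 19.0 and 16.3 CPM in WT CC and 17.7, 19.0 and 18.5 CPM in HOMO CC. Every CC library exceeded every CB library. It rose by 0.52 in WT (SE 0.14, edgeR adjusted p = 0.0392) and by 0.71 in HOMO (SE 0.14, adjusted p = 0.00409). In WT that call was lost without CB library 1 or 3 or CC library 1 or 2 (adjusted p = 0.0934 to 0.174), and in HOMO it held without each library in turn.

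**Figure D5:**
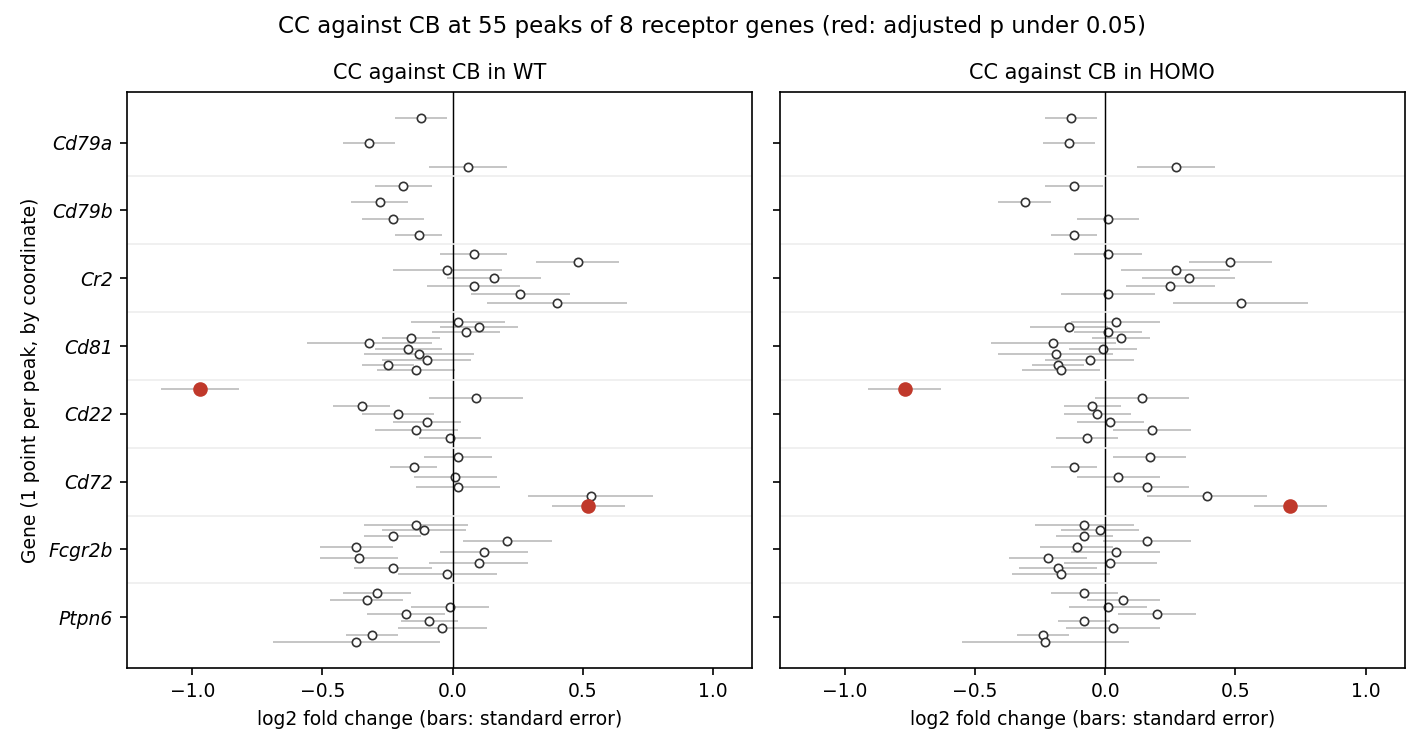
Log2 fold change of CC against CB for each of the 55 member peaks, by gene, in WT and in HOMO; red points passed the test and bars are standard errors. The Cd22 peak at -0.97 and -0.77 and the Cd72 peak at 0.52 and 0.71 are the red points in both genotypes.

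Equal library numbers within a genotype were read as pairs of CB and CC libraries, from correlations in these same data. The labels do not say that such libraries share animals. Library 3 was the deepest of every group, and depth was not separated from pairing. The fit with the number as a block is given for this comparison on that reading. With that replicate block 17 of 55 members passed in WT, 4 higher and 13 lower in CC, against 22.1% of all peaks (10.4% higher and 11.8% lower). In HOMO 8 passed, 5 higher and 3 lower, against 22.2% of all peaks (12.5% and 9.68%). At the signalling chains the Cd79a start passed as lower in CC in WT (-0.32, SE 0.07, edgeR adjusted p = 1.86e-04, unblocked 0.0616), while the Cd79a peak at the other end of the gene passed as higher in CC in HOMO (0.30, adjusted p = 0.0158). The Cd79b peak 1117 bp past the gene passed as lower in both genotypes (-0.27 and -0.28, adjusted p = 0.00394 and 0.00164). Among the coreceptors the Cd81 start passed as lower in WT (-0.25, adjusted p = 0.00793), and a Cr2 peak 8198 bp upstream passed as higher in both genotypes (0.50 and 0.48, adjusted p = 0.00215 and 0.00123). That Cr2 peak had 8.49, 10.2 and 7.36 CPM in WT CB, 11.7, 10.0 and 8.74 in HOMO CB, 12.4, 11.7 and 11.7 CPM in WT CC and 15.8, 13.9 and 12.4 CPM in HOMO CC. CC exceeded CB without overlap in each genotype. The Ptpn6 peak 5595 bp past the start passed as lower in both (-0.30 and -0.22, adjusted p = 0.00093 and 0.0153), as did the Ptpn6 start in WT (-0.38, adjusted p = 0.00165). On summed counts 0 of 8 genes passed in either genotype without the block, against 3.82% (2.81% higher and 1.01% lower) and 4.99% (3.23% higher and 1.76% lower) of all genes. With it 5 passed in WT (Cd22, Cd79a, Cd79b, Cr2 and Ptpn6) and 3 in HOMO (Cd72, Cd79b and Cr2), against 20.8% and 22.1%.

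Gene-end peaks elsewhere in the genome with the most similar profiles were named by the root mean square difference of centred log2 CPM over 12 libraries. For the Cd22 peak past its far end these were at Rpia (0.18), N4bp3 (0.18) and Nod2 (0.19), where the median over 6953 peaks of similar level was 0.50. For the Cd72 upstream peak they were at Cd164 (0.12), Heg1 (0.14) and Ak8 (0.15), with a median of 0.45 over 6579 peaks. All of these were picked as the closest, so their values lie below the medians by construction.

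Other genes around the receptor are given from lists of related genes. Of 200 peaks of other coreceptors, inhibitory receptors and phosphatases, 1 rose and 2 fell in HOMO CB. In HOMO CC 4 rose and none fell. These calls were 1.5% and 2.0% of the 200 peaks, against 4.63% and 2.75% of all peaks. The median log2 fold changes were 0.06 and 0.12. A peak of Fcrla, an Fc receptor-like gene, rose in both, from 35.2 ± 1.94 to 47.7 ± 3.65 CPM in CB and from 33.7 ± 1.58 to 47.8 ± 7.29 CPM in CC (SD, n = 3, edgeR adjusted p = 0.0204 and 0.015). A peak 11947 bp outside Fcrl5, another gene of that family, fell by 0.91 in CB (adjusted p = 0.0184), from 7.04 ± 1.39 to 3.83 ± 0.791 CPM. Of 489 peaks of receptor kinases and adaptors, 6 rose and 4 fell in CB and 4 rose and 1 fell in CC. That was 2.04% and 1.02% of them, with medians of 0.06 and 0.11. Csk, whose product switches off SRC-family kinases, had a peak inside the gene that rose from 53.5 ± 2.6 to 69.7 ± 0.0988 CPM in CB (0.38, SE 0.08, edgeR adjusted p = 0.0127) and from 45.2 ± 3.08 to 64.8 ± 2.31 CPM in CC (0.53, SE 0.08, adjusted p = 0.00549). A peak inside Sh3bp2, which encodes an adaptor protein, fell from 15.1 ± 1.58 to 8.7 ± 1.57 CPM in CB (-0.82, SE 0.17, edgeR adjusted p = 0.0105) and from 11 ± 1.24 to 5.79 ± 0.868 CPM in CC (-0.90, SE 0.18, adjusted p = 0.0137). Of 90 peaks of other tetraspanins, the family of CD81, 1 rose and 4 fell in CB and 1 rose and 3 fell in CC. That was 5.56% and 4.44% of them, with medians of -0.01 and 0.06. A gene-end peak of Tspan33 fell by 0.60 in CB and 0.64 in CC (edgeR adjusted p = 0.0286 and 0.0291) and a Cd9 gene-end peak fell by 0.76 in CB (adjusted p = 0.034).

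In CC against CB, 15 peaks of the kinases and adaptors rose and 17 fell in WT and 18 rose and 14 fell in HOMO. These calls were 6.54% of the 489 peaks in each genotype, against 5.43% and 7.22% of all peaks. A peak inside Blk, a SRC-family kinase of B cells, rose in CC from 4.04 ± 0.968 to 12.5 ± 2.43 CPM in WT and from 4.3 ± 0.729 to 14.0 ± 3.16 CPM in HOMO (edgeR adjusted p = 2.97e-04 and 8.11e-05). Of the other coreceptor and inhibitory receptor peaks 3 rose and 3 fell in WT and 6 rose and 3 fell in HOMO. That was 3.0% and 4.5% of them. Of the tetraspanin peaks 3 rose and 1 fell in WT and 9 rose and 1 fell in HOMO (4.44% and 11.1%).

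Markers of other cells are given beside these results, first for HOMO against WT. The T cell marker sum, in CPM, was 251 to 273 in WT CB, 226 to 234 in HOMO CB, 237 to 246 in WT CC and 209 to 215 in HOMO CC. It was lower in HOMO without overlap. Of its 24 peaks 2 fell in CB and 1 in CC, all at Cd247, which encodes the T cell receptor zeta chain. These calls were 8.33% and 4.17% of the 24 peaks, against 4.63% and 2.75% of all peaks. The mean levels of these Cd247 peaks went from 19.1 to 9.3 and from 22.6 to 13.4 CPM in CB. Over the 24 peaks the median log2 fold change was -0.04 in CB, with 11 above 0, and -0.12 in CC, with 7 above 0. Myeloid sums were 354 to 395, 357 to 390, 379 to 436 and 383 to 446 CPM in the same order. Of 36 myeloid peaks 2 fell in CB and 1 in CC (5.56% and 2.78%). Germinal center marker sums, in CPM, were 2626 to 2741 in WT CB, 2827 to 3084 in HOMO CB, 2495 to 2632 in WT CC and 2668 to 3050 in HOMO CC, higher in HOMO without overlap. Of those 138 peaks 3 rose and none fell in each population (2.17%), with medians of 0.17 and 0.19. Among naive and follicular B cell markers, 0 of 95 peaks passed in CB and 1 rose in HOMO CC (1.05%), at Cd38. The medians were -0.05 and 0.06. None of the 17 follicular dendritic and stromal peaks passed in either population.

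In CC against CB, 3 myeloid marker peaks rose and 1 fell in WT and 3 rose in HOMO, with medians of 0.19 and 0.09. These calls are 11.1% and 8.33% of 36 peaks, against 5.43% and 7.22% of all peaks. A peak inside Csf1r, the receptor of a macrophage growth factor, rose from 7.1 ± 1.49 to 13.9 ± 1.59 CPM in WT (edgeR adjusted p = 0.00228) and from 7.7 ± 1.6 to 19.9 ± 0.188 CPM in HOMO (adjusted p = 8.35e-05). A peak 5427 bp outside Itgam, an integrin gene of myeloid cells, rose in both genotypes (1.77 and 1.5, edgeR adjusted p = 0.0235 and 0.0496). Its levels were low, at 0.707 ± 0.278 to 2.57 ± 1.05 CPM in WT and 0.443 ± 0.272 to 1.42 ± 0.686 CPM in HOMO. The median over all peaks was 7.78 CPM. Of the 17 follicular dendritic and stromal peaks 1 rose in WT and 2 in HOMO (5.88% and 11.8%), all at Pdgfrb. These Pdgfrb peaks came directly before the called Csf1r peaks in peak order, so both lists report the same stretch of the genome here. Of the 138 germinal center marker peaks 7 rose and 7 fell in WT and 17 rose and 10 fell in HOMO (10.1% and 19.6%). Of the 95 naive and follicular peaks 2 rose and 2 fell in WT and 5 rose and 2 fell in HOMO (4.21% and 7.37%). The part of these differences in the members' values was not tested, and a change in the mix of cells cannot be told apart from a change within cells in such bulk libraries.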

How the data were processed

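The authors deposited raw counts of reads per peak for 12 libraries, aligned to mm10 per the labels. BWA, FastQC, deepTools and R 4.2.1 are listed, with no roles, in the submitters' processing notes. The sources used here do not give the peak caller, the read counter, how duplicates or the Tn5 offset were treated, or whether libraries were pooled.

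Peaks were assigned to 21627 protein-coding RefSeq gene spans (GRCm38.p6) within 50000 bp, which placed 64043 peaks (93.2%). Counts were scaled by TMM (factors 0.954 to 1.052). They were then fitted by edgeR 4.0.16 (R 4.3.3) with robust quasi-likelihood, 1 mean per group over 12 libraries, filterByExpr (0 peaks removed), two-sided tests, and Benjamini-Hochberg adjustment over all peaks or genes at 0.05. The biological coefficient of variation was 0.142 for peaks and 0.085 for gene sums, and, over all peaks, the log2 fold changes had a median standard error of 0.20. CPM values use TMM, and log2 CPM adds a prior count of 2. DESeq2 1.42.0 was an alternative. The test was checked on simulated data. For HOMO against WT, peaks given a 1.5-fold change were called in 20.0% of cases in CB and 26.0% in CC. At 2-fold the shares were 52.0% and 48.0%, and at 3-fold 96.0% in each. Of unchanged peaks 0.012% and 0.013% were called. Other software was Python 3.11.15 with pandas 2.3.3, numpy 2.4.6 and matplotlib 3.10.9, and version 1.17.8 of data.table. Intervals are at 95% by a normal approximation on the standard error, so they are somewhat narrower than the quasi-likelihood test implies. They cover the fitted spread between libraries.

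Named members were, for each gene, every called peak, the most open gene-end peak, the most open peak and the one of smallest genotype p. From each other list up to 3 called peaks of smallest p per contrast could be named. Similar profiles were sought among gene-end peaks with a mean log2 CPM within 1. Members, gene lists and tests were chosen with earlier results of these data known.

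Deviations from group means correlated at 0.21 to 0.52 between same-numbered CB and CC libraries of a genotype (6 pairs) and at -0.34 to 0.12 between different-numbered ones (12 pairs), so numbers were read as pairs there. Across genotypes the same-numbered values were -0.01 to 0.40 (12 pairs) and the others -0.30 to 0.18 (24 pairs), and they were not.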

Additional observations from a re-analysis of the deposited data

How the results depend on the processing

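Over all peaks, log2 fold changes had a median standard error of 0.20 with 3 libraries per group, so a miss does not show that groups were equal, and what greater depth would add was not tested. No called peak or gene sum changed direction under the alternatives run. With library totals only, the member median of CC against CB in HOMO went from -0.01 to 0.02 (30 of 55 above 0) and the all-peak median in WT from -0.03 to 0.04. The number of members called in CB (1) was 2 with RLE size factors, library totals only, an average log2 CPM of at least 1, DESeq2 or only the 2 groups compared, and 3 with log2 library total as a covariate or without both HOMO libraries numbered 1. Of all peaks 3.85% to 6.13% were called under the first 5 settings, 11.8% with the covariate and 7.14% without those libraries, against 4.63%. Leaving out 1 library gave 0 to 1 members. In CC (3) it was 1 with library totals only, only the 2 groups compared or without both WT libraries numbered 2, and 6 with library total as a covariate or without both HOMO libraries numbered 1. The all-peak shares were 2.9%, 1.98%, 0.473%, 8.42% and 6.47% in that order, against 2.75%, so the counts of 6 came with more calls in the whole table. Leaving out 1 library gave 0 to 5 members. For CC against CB it was 7 in WT and 5 in HOMO (2 each) with library total as a covariate, 1 in each with a limit of 10000 bp to the gene, and, in WT, 1 without both WT libraries numbered 2 and 4 without both HOMO libraries numbered 1. With the covariate 11.4% and 13.1% of all peaks were called, and for those 2 settings in WT 0.767% and 7.31%. Leaving out 1 library gave 1 to 3 in WT and 2 to 2 in HOMO. The cause was not tested, except that the shorter limit drops the Cd72 peak from the members.

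Genes called on summed counts (1 in each population) were 0 in CB with library totals only, 3 in CB and 4 in CC with DESeq2, 0 in both without both WT libraries numbered 2 and 5 in CC without both HOMO libraries numbered 1. Of all genes 7.71% were called in CB with library totals only, 10.4% and 7.58% in CB and CC with DESeq2, 3.46% and 0.701% without the WT libraries and 10.4% in CC without the HOMO libraries. Leaving out 1 library gave 0 to 0 in CB, 0 to 4 in CC, 0 to 1 for CC against CB in WT and 0 to 0 in HOMO. The difference of effects called 0 members and 0 of the 8 member genes under each alternative. Over all 14261 genes it called 1 with the replicate block. With the replicate block, for HOMO against WT only a shared number, 6 members passed in CB and 9 in CC, against 13.2% and 10.4% of all peaks, and 4 and 6 genes, against 19.6% and 16.5% of all genes. The Ptpn6 start in CB was among them, at -0.39 (edgeR adjusted p = 0.0203). For CC against CB the blocked pairing gave 17 and 8 members and 5 and 3 genes. Over all peaks, leaving out 1 library gave 341 to 3722 calls in CB, 17 to 3413 in CC, 1301 to 3565 for CC against CB in WT and 2018 to 4677 in HOMO, and 0 to 0 for the difference of effects.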
